A study of Mus musculus with 12 samples.

Results

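Genes of cholesterol synthesis and oxysterol formation were followed in mouse retina as 8 members, matched by gene name among the 32867 genes of the deposited table. They were the synthesis enzymes Hmgcs1, Idi1 and Sqle, the regulators Srebf2 and Insig1, the exporter Abca1, and the oxysterol enzymes Ch25h and Cyp46a1. RNA of whole retinas had been sequenced in 4 groups of 3 samples. The mutants were Pde6b rd1 (rd1 hereafter) taken on postnatal day 13, Pde6b rd10 (rd10) on day 23 and Prph rd2 (rd2) on day 29, and the controls were C3H mice with wild-type alleles of Pde6b and Prph2. In the labels, the control samples are of days 13, 23 and 29, with 1 sample for each. According to the methods, Pde6b rd1 is a C3H line and Pde6b rd10 a C57Bl6/J line, while Prph rd2 is a C3H line in the methods and carries C57BL6/J in the labels. Each mutation is carried throughout the body, and animals were used irrespective of gender. The labels do not say whether a sample came from 1 animal or from a pool. Nor do they say whether the samples of a group came from separate animals, so p-values measure only the spread between these samples.

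Animal cells build cholesterol from acetyl-CoA through mevalonate, isoprenoid units, squalene and lanosterol. When sterols in the endoplasmic reticulum are low, SCAP carries the transcription factor SREBP2, the product of Srebf2, to the Golgi for cleavage, and the released part turns on genes of synthesis and uptake. INSIG proteins hold SCAP back when sterols are high. Liver X receptors (LXRs), which oxysterols activate, turn on efflux genes such as Abca1. The retina makes much of its own cholesterol, photoreceptor outer segments contain it, and neurons clear it largely as 24S-hydroxycholesterol made by CYP46A1.

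The number of reads assigned to genes ranged from 17049495 to 24755890 per sample. The smallest value taken as measurable, 3 counts, corresponded to between 0.121 and 0.17 CPM (read counts scaled to library size), which covers counting error only, since the reads carried no molecular identifiers. Pde6b, the gene mutated in rd1 and rd10, had a level of 241 to 245 FPKM (read counts scaled by gene length and library size) in C3H, 56.7 to 57.6 in rd1 and 169 to 174 in rd10. Prph2 had 885 to 976 FPKM in C3H and 421 to 482 in rd2. Xist, the X-inactivation RNA of females, lay between 0.0209 and 0.0281 FPKM in C3H, 212 and 223 in rd1, 40 and 45 in rd10 and 86.6 and 109 in rd2. The Y-linked gene Ddx3y had no read in rd1 and 14.4 to 16.3 FPKM in C3H, 10.8 to 13.7 in rd10 and 6.08 to 7.2 in rd2. Each rd10 and each rd2 sample thus held both RNAs, as a pool of males and females would and 1 animal would not. Mutation, sex and strain (for rd10, and for rd2 if its label holds) therefore differ together between each model and C3H and cannot be told apart, and labelled day matches in 1 C3H sample only.

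All members but Sqle matched an entry among the RefSeq promoter windows of GRCm38.p6, and the stretches before the start of Hmgcs1, Insig1, Abca1 and Ch25h are shown because these members were called in at least 1 comparison with C3H. The sequence runs 5′ to 3′ on the gene's strand and ends before the first start that either RefSeq or GENCODE gives, and capitals mark matches to any of 3 motifs on either strand.
Hmgcs1, chr13:119690101-119690350 (+): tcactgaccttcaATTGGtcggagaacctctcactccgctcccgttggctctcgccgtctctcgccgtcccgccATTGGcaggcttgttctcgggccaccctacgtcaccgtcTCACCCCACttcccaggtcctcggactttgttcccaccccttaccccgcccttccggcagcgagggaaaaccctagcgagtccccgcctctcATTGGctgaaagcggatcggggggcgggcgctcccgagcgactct
Insig1, chr5:28071162-28071362 (+): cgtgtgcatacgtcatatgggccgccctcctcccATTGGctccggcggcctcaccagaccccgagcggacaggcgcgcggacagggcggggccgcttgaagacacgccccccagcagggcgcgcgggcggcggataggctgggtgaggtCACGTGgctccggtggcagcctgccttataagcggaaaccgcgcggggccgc
Abca1, chr4:53159896-53160145 (-): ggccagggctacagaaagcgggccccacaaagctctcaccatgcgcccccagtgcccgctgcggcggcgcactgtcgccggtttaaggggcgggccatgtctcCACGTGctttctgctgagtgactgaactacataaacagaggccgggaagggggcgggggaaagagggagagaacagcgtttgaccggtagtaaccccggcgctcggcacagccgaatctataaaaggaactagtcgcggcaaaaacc
Ch25h, chr19:34475165-34475398 (-): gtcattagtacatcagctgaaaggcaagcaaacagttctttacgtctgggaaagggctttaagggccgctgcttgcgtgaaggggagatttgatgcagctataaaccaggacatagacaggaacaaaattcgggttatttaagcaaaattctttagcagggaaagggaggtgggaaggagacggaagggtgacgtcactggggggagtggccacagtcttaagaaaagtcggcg
The motifs were TCACNCCAC, the core of a sterol regulatory element to which SREBPs bind, CCAAT, the box of NF-Y, which acts with SREBPs at many synthesis genes, and the E-box CACGTG, which reads the same on both strands. No match overlapped another in these windows. Within the 250 bases before the RefSeq start, TCACNCCAC occurred in 1.05% of all 32851 windows, CCAAT in 33.8% and CACGTG in 6.02%. Among the members, the sterol element core occurred in Hmgcs1 only, as TCACCCCAC from 137 to 129 bases before the start, beside 3 CCAAT boxes. Insig1 held 1 CCAAT box and 1 E-box, Abca1 held 1 E-box, and Ch25h held none of the 3. CCAAT also occurred in Idi1, Srebf2 and Cyp46a1. Of the 20 synthesis genes listed below, 15 had a window, and 14 of these held CCAAT, 3 the E-box and 1 the sterol element core. A match here is only a match of letters in this window.

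The call rule asked for a fold change of 1.5 or more with an unadjusted p below 0.05 in edgeR's quasi-likelihood test, and adjusted p-values are over all genes tested (Benjamini-Hochberg). In rd10, 1 of the 7 members that passed the filter on low counts in each comparison was called lower (Hmgcs1) and 1 higher (Abca1), where 8.08% of 18704 tested genes were called lower and 15.9% higher. In rd1, 1 of the same 7 was called lower (Insig1) and 0 higher, against 6.03% and 8.98% of 18310 genes, and Abca1 lay just under the fold threshold. In rd2, 0 of 7 were called, against 1.89% lower and 2.68% higher of 18581 genes. Without the fold threshold, 2 of the 7, Insig1 and Abca1, had an unadjusted p below 0.05 in rd2, 1 higher and 1 lower, against 23.8% of all genes in either direction, and DESeq2 also called 0 members there. The share at that p was 49.7% in rd1 and 58.9% in rd10. By the adjusted p alone, 4 of the 7 were lower and 3 higher in rd10, where 26.3% and 27.7% of all genes were. The numbers were 6 lower and 1 higher in rd1, against 21.3% and 21.9%, and 0 in either direction in rd2, against 5.17% and 4.53%. These counts by the adjusted p depend on the processing. Of the 6 lower in rd1, all but Insig1 had an adjusted p above 0.05 in at least 1 of the alternative fits described below. In rd10 the same held for Srebf2 and Cyp46a1. Ch25h passed the filter against C3H through its rd10 counts alone, so that its difference there was fixed by the filter, and it is left out of these counts and described by its values. The median log2 fold change of the 7 members was -0.18 in rd1, -0.19 in rd10 and 0.05 in rd2, where that of all tested genes was -0.01, -0.0025 and -0.0012. In these bulk samples, fewer cells of a type and less RNA per cell cannot be told apart.

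**Figure D1:**
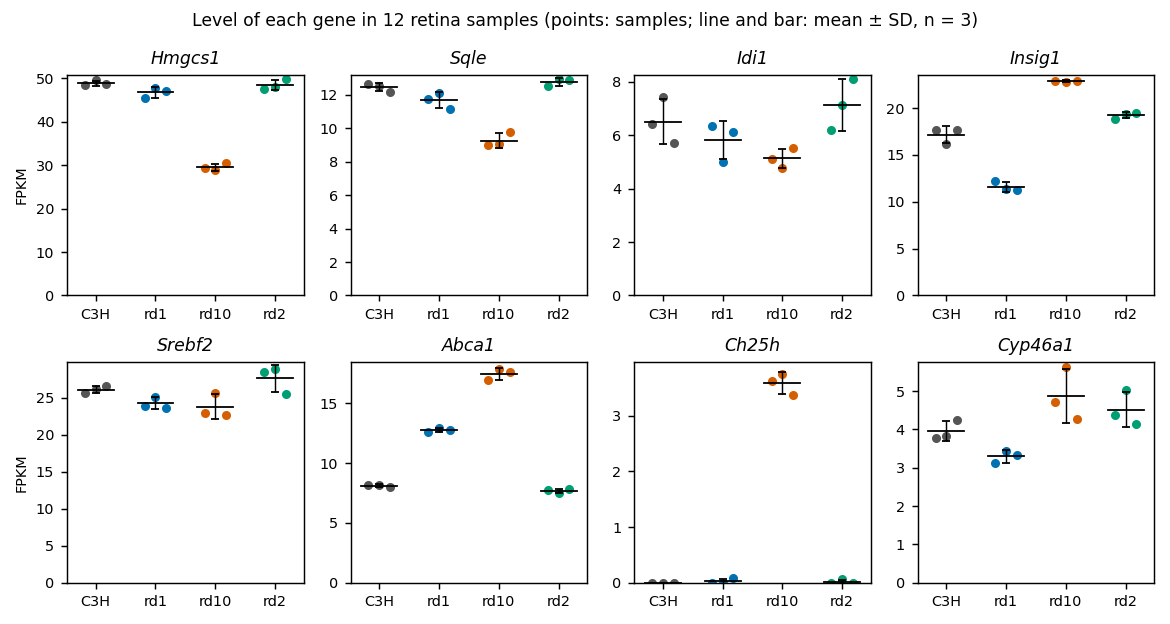
Level in FPKM (vertical axes, from 0) of the 8 members in the 3 samples of each group, with the mean and SD. The rd10 points stand apart as low for Hmgcs1 and as high for Abca1 and Ch25h, and the rd1 points of Insig1 lie lowest, between 11.3 and 12.2.

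**Figure D2:**
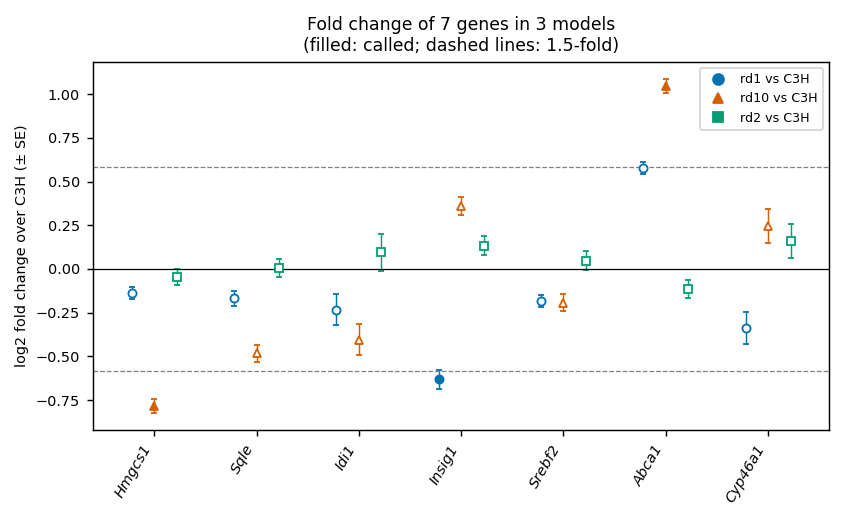
Log2 fold change over C3H with its standard error (vertical axis) of 7 members in rd1, rd10 and rd2, where filled points were called and dashed lines mark 1.5-fold. The rd2 points lie between -0.11 and 0.16, and Ch25h is left out because its C3H counts were 0.

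Hmgcs1 encodes the cytosolic HMG-CoA synthase, which supplies HMG-CoA for the mevalonate pathway, and lies on chromosome 13 from 119690379 to 119708260 (GRCm38). Its levels were 48.5, 49.6 and 48.7 FPKM in C3H, 45.5, 47.9 and 47.2 in rd1, 29.3, 28.8 and 30.4 in rd10, and 47.5, 48.2 and 49.9 in rd2. The rd10 samples lay below all others, while C3H overlapped rd2 and rd2 overlapped rd1. In rd10 it fell by 0.78 on the log2 scale (standard error 0.04, adjusted p = 4.94e-13), a 1.72-fold lower level. The log2 fold change was -0.14 in rd1 (standard error 0.03, adjusted p = 0.00144) and -0.04 in rd2 (standard error 0.04, adjusted p = 0.609), neither called. Against the C3H sample of day 23 alone, the rd10 mean differed by -0.80 on the log2(CPM + 0.5) scale, a value with no test. The antisense gene Gm48342, whose exons overlap those of Hmgcs1, had 25 to 65 counts in C3H and 11 to 14 in rd10, few beside the 2481 to 5474 counts of Hmgcs1 in these groups. The library kit was directional, and the strand setting of the counting is not given in the sources used here.

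Idi1, the isopentenyl diphosphate isomerase that interconverts both isoprenoid units, lies on chromosome 13 from 8885501 to 8892451. It had 6.41, 7.42 and 5.72 FPKM in C3H, 6.35, 5 and 6.13 in rd1, 5.09, 4.79 and 5.52 in rd10, and 6.18, 7.12 and 8.11 in rd2. The rd10 samples lay below those of C3H, and other neighbouring groups overlapped. The log2 fold change in rd10 was -0.40 (standard error 0.09, adjusted p = 0.000608), under the fold threshold. It was -0.23 in rd1 (standard error 0.09) and 0.10 in rd2 (standard error 0.10).

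Sqle encodes squalene epoxidase, the first oxygen-requiring step of the pathway, on chromosome 15 from 59315077 to 59331192. Its levels were 12.6, 12.6 and 12.2 FPKM in C3H, 11.7, 12.1 and 11.2 in rd1, 8.99, 9.03 and 9.78 in rd10, and 12.5, 13.0 and 12.9 in rd2. The rd10 samples were again the lowest, with a gap to all other samples. At -0.48 on the log2 scale (standard error 0.05, adjusted p = 7.15e-08), Sqle stayed under the fold threshold in rd10. In rd1 the value was -0.17 (standard error 0.04).

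The other genes of synthesis were taken from a list of 20, from acetyl-CoA to lanosterol and on to cholesterol, which contains these 3 members. All 20 were tested in each comparison. In rd10, 4 were called lower and 0 higher, where 8.08% and 15.9% of all genes were, and 14 were lower and 2 higher by the adjusted p alone, where 26.3% and 27.7% were. The median log2 fold change was -0.32 against -0.0025 for all genes. Beside Hmgcs1, the genes called were Acat2, the cytosolic thiolase at the start of the pathway, and Nsdhl and Dhcr7 near its end. Dhcr7, which makes cholesterol from 7-dehydrocholesterol, had 9.89 to 10.3 FPKM in C3H and 5.4 to 5.98 in rd10 and fell by 0.88 on the log2 scale (standard error 0.06, adjusted p = 3.39e-11). Nsdhl, a sterol dehydrogenase of the X chromosome, fell by 0.67 (standard error 0.09). Acat2 fell by 0.61 (standard error 0.07). With limma on log2(FPKM + 1), which compresses the change of low genes, 2 of the 20 were called in rd10, with Acat2 at -0.51 and Nsdhl at -0.50 under the fold threshold, and on log2(FPKM + 0.1) Acat2 was at -0.55. Leaving out single samples gave 4 or 5.

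In rd1, 0 of the 20 were called in edgeR, 10 were lower and 0 higher by the adjusted p as by an unadjusted p below 0.05, where 21.3% of all genes were lower by the adjusted p and 49.7% passed the unadjusted p in either direction, and the median was -0.17 against -0.01 for all genes. DESeq2 also called 0. In rd2, 0 were called in edgeR and in DESeq2, 2 were lower and 1 higher at an unadjusted p below 0.05 (23.8% of all genes in either direction), 1 was lower by the adjusted p (5.17% of all genes), and the median was -0.02 against -0.0012. Fdps, the farnesyl diphosphate synthase gene, was counted with only 34 to 64 reads in C3H, rd10 and rd2 and 33 to 41 in rd1, and its exons overlap those of Gm43738 on the same strand, so that its counts are uncertain.

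**Figure D3:**
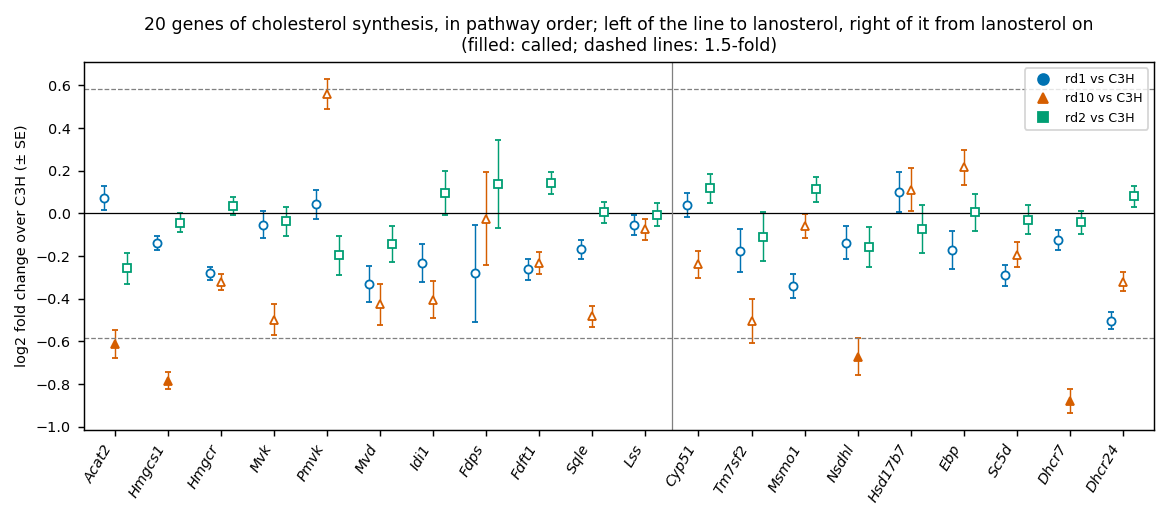
Log2 fold change over C3H with its standard error (vertical axis) of 20 synthesis genes in pathway order (horizontal axis) in the 3 models, where filled points were called. The 4 filled points, Acat2, Hmgcs1, Nsdhl and Dhcr7, all belong to rd10 and lie between -0.88 and -0.61.

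Srebf2 encodes SREBP2 and lies on chromosome 15 from 82147181 to 82205379. Its levels were 25.6, 26.1 and 26.5 FPKM in C3H, 23.9, 25.2 and 23.6 in rd1, 22.9, 25.7 and 22.7 in rd10, and 28.5, 28.9 and 25.5 in rd2. C3H overlapped rd2 and, by its lowest sample, 1 sample of rd10. The log2 fold change was -0.18 in rd1 (standard error 0.03), -0.19 in rd10 (standard error 0.05) and 0.05 in rd2 (standard error 0.05), so that no comparison reached the fold threshold. These are RNA levels and say nothing of the cleavage of the protein.

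Insig1 encodes the INSIG that is itself induced by SREBPs, on chromosome 5 from 28071363 to 28078662. It had 17.7, 16.2 and 17.7 FPKM in C3H, 12.2, 11.4 and 11.3 in rd1, 22.9, 22.8 and 23.0 in rd10, and 18.9, 19.3 and 19.5 in rd2. No group overlapped another, in the order rd10, rd2, C3H and rd1. In rd1 it fell by 0.63 on the log2 scale (standard error 0.05, adjusted p = 1.27e-09), 1.55-fold. This call sits near the threshold and was lost with limma on log2(FPKM + 1), where the change was -0.52, and on log2(FPKM + 0.1), where it was -0.56. In rd10 the log2 fold change was 0.36 (standard error 0.05, adjusted p = 4.56e-06), under 1.5-fold. In rd2 it was 0.13 (standard error 0.06, adjusted p = 0.165). In rd1, 4 of the 8 Müller glia markers were also called lower and 0 higher, where 6.03% and 8.98% of all genes were. Their summed level was 576 to 586 FPKM against 1030 to 1060 in C3H. The summed level of 8 rod markers was 2320 to 2350 against 4710 to 4830, with 5 of 8 called lower. All 4 pigment epithelium markers tested were called lower, and the sum of the 5 on the list was 12.3 to 13.9 FPKM against 21.8 to 23.7. Of 6 cone markers, 3 were called lower and 1 higher, and of 6 ganglion cell markers 1 was called lower. Of 6 bipolar cell markers 0 were called, and their sum was higher, at 404 to 411 FPKM against 336 to 347. Of 4 astrocyte, 5 amacrine cell and 5 endothelium markers, 0 were called. By the adjusted p alone, 2, 4 and 5 of these were lower and 0, 1 and 0 higher. Of the ganglion cell markers 5 were lower by it and 0 higher, and of the bipolar cell markers 3 and 2. Of all genes, 21.3% were lower and 21.9% higher by the adjusted p. The part of cell composition in the Insig1 result was not tested.

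Of the 7 genes that sense sterols and process SREBPs (Srebf2, Srebf1, Scap, Insig1, Insig2, Mbtps1 and Mbtps2), Insig1 in rd1 was the only one called against C3H. Of all genes, 6.03% were called lower in rd1 and 8.98% higher. In edgeR 0 of the 7 were called in rd10 and in rd2. At an unadjusted p below 0.05, 3 were higher and 4 lower in rd10, and 1 higher and 1 lower in rd2. Of all genes, 58.9% passed that p in either direction in rd10 and 23.8% in rd2. The medians were -0.11 in rd1, -0.19 in rd10 and -0.01 in rd2, against -0.01, -0.0025 and -0.0012 for all genes.

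Abca1 encodes the transporter that hands cholesterol and phospholipid to apolipoproteins, on chromosome 4 from 53030787 to 53159895. Its levels were 8.19, 8.18 and 7.99 FPKM in C3H, 12.6, 13.0 and 12.7 in rd1, 16.9, 17.8 and 17.6 in rd10, and 7.71, 7.46 and 7.85 in rd2. The groups did not overlap, in the order rd10, rd1, C3H and rd2. In rd10 it rose 2.07-fold, which is 1.05 on the log2 scale (standard error 0.04, adjusted p = 1.46e-14). In rd1 the log2 fold change was 0.58 (standard error 0.04, adjusted p = 6.16e-12), a ratio of 1.49 that just missed the fold threshold. Without rd1 replicate 1 it was 0.59 and was called, which brought the members called in rd1 from 1 to 2. Limma on log2(FPKM + 1) and log2(FPKM + 0.1) also called it, at 0.59 and 0.65. In rd2 the value was -0.11 (standard error 0.05, adjusted p = 0.181). Against the C3H sample of the same labelled day alone, the mean differed by 1.04 in rd10 and 0.57 in rd1 on the log2(CPM + 0.5) scale, values with no test.

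Of the LXR and efflux list of 10 genes, 9 were tested in each comparison. In rd10, 2 of these were called higher and 0 lower, where 15.9% and 8.08% of all genes were, with a median of 0.17 against -0.0025 for all genes. These were Abca1 and the apolipoprotein gene Apoe with 166 to 204 FPKM against 68.4 to 80.5 in C3H (log2 fold change 1.28, standard error 0.06, adjusted p = 4.19e-13). Apoc1 passed the filter on low counts in rd10 only, with 5 to 8 counts in C3H, 6 to 17 in rd1 and 14 to 32 in rd10. In rd1, 2 of 9 were called lower and 0 higher, where 6.03% and 8.98% of all genes were, with a median of -0.24 against -0.01. Pltp, the phospholipid transfer protein gene, fell by 0.77 (standard error 0.09). Apoe fell by 0.59 (standard error 0.05), a call lost in 6 alternatives, among them the fits without C3H replicate 3, at -0.52, and without rd1 replicate 3, at -0.54. In rd2, 1 of 9 was called lower and 0 higher, where 1.89% and 2.68% of all genes were, with a median of -0.11 against -0.0012. This was Abcg1, a partner of Abca1 in efflux to high-density lipoprotein, with 17.1 to 17.5 FPKM against 27.5 to 28.1 (log2 fold change -0.72, standard error 0.05). Apoe is also 1 of the 8 Müller glia markers.

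Uptake and transport genes reported here numbered 9, all tested. In rd10, 2 were called higher and 0 lower, where 15.9% and 8.08% of all genes were, with a median of 0.12 against -0.0025. Lipa, the lysosomal acid lipase gene, had 9.39 to 9.97 FPKM against 4.84 to 5.04 in C3H and rose by 0.92 on the log2 scale (standard error 0.07). Soat1, which esterifies cholesterol, rose by 0.96 (standard error 0.07). In rd1, 0 of 9 were called in edgeR, and the median was -0.16 against -0.01. At an unadjusted p below 0.05, 1 was higher and 6 lower, where 49.7% of all genes passed in either direction. In rd2, 0 were called in edgeR, and the median was -0.0022 against -0.0012. At an unadjusted p below 0.05, 3 were higher and 1 lower, where 23.8% of all genes passed in either direction.

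**Figure D4:**
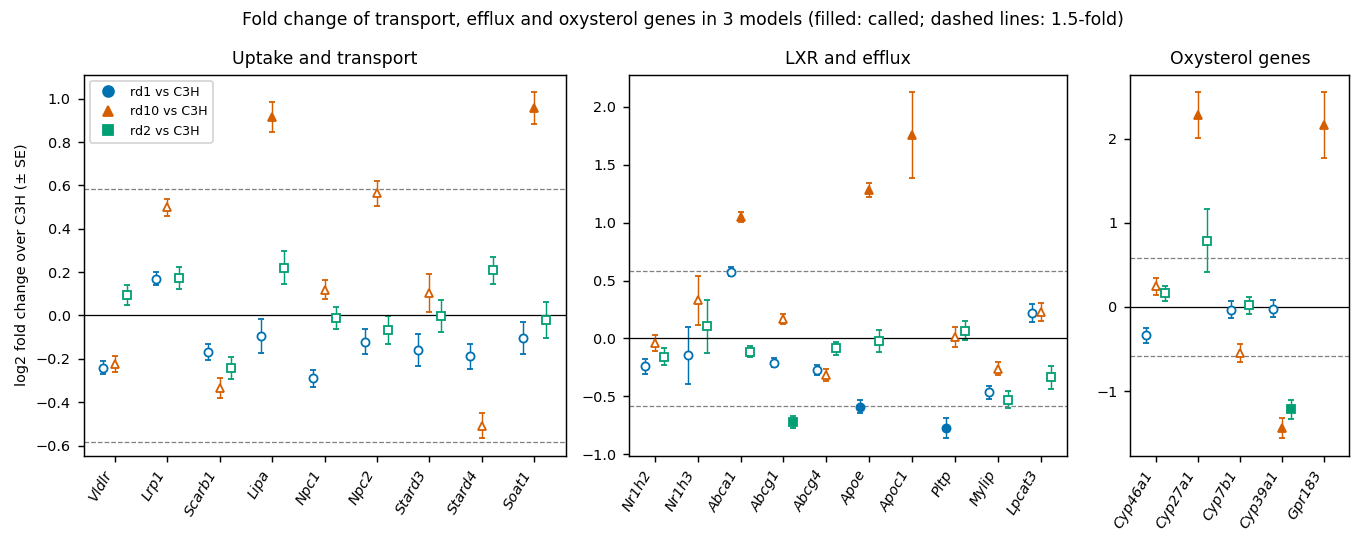
Log2 fold change over C3H with its standard error (vertical axes, which differ in range) of genes of uptake and transport, of LXR and efflux and of oxysterols in the 3 models. Filled points were called. Ch25h and Sult2b1 are left out, and any other gene without a point in a model was not tested there. Abca1, Apoe, Lipa and Soat1 lie high in rd10, at 1.05, 1.28, 0.92 and 0.96. Apoc1, Cyp27a1 and Gpr183 lie higher still but had few counts in C3H.

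Ch25h encodes cholesterol 25-hydroxylase, which makes 25-hydroxycholesterol and is known as an interferon-induced gene of macrophages. It lies on chromosome 19 from 34473778 to 34475164. It had 0 counts in each C3H sample, 0, 0 and 2 in rd1, 0, 2 and 0 in rd2, and 121, 95 and 91 in rd10, which are 3.62, 3.76 and 3.37 FPKM. Only rd10 was above the floor of 3 counts per library, so that its level was at least 33-fold higher than in C3H, at least 31.6-fold higher than in rd1 and at least 37.6-fold higher than in rd2. These are values with no test, since the gene passed the filter on low counts through rd10 alone. Gm26902, a noncoding gene on the opposite strand whose exons overlap those of Ch25h, had 14, 12 and 11 counts in rd10 and 0 to 2 in the other groups. The direction is that of Ch25h, with far fewer counts, and part of either signal could be reads of the other if strand was not used in the counting.

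Cyp46a1 encodes cholesterol 24-hydroxylase, mainly a neuronal enzyme, on chromosome 12 from 108334381 to 108362234. It had 3.79, 3.82 and 4.25 FPKM in C3H, 3.12, 3.44 and 3.33 in rd1, 4.72, 5.64 and 4.27 in rd10, and 4.38, 5.02 and 4.14 in rd2. rd1 lay below the other groups, C3H overlapped rd2, and rd10 overlapped rd2. The log2 fold change was -0.34 in rd1 (standard error 0.09, adjusted p = 0.00431), 0.25 in rd10 (standard error 0.10, adjusted p = 0.0426) and 0.16 in rd2 (standard error 0.09, adjusted p = 0.336), none of them called.

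Of the 10 genes of oxysterol formation, turnover and sensing, 9 had a row in the table. Of these, 3 (Cyp46a1, Cyp7b1 and Cyp39a1) passed the filter on low counts in each comparison. In rd10, 1 of the 3 was called lower and 0 higher, where 8.08% and 15.9% of all genes were. The others that passed in rd10 (Ch25h, Cyp27a1 and Gpr183) had few or no counts in C3H, so no count or median is given over them. Cyp27a1, the sterol 27-hydroxylase, had 55 to 74 counts in rd10 against 6 to 23 in C3H and 20 to 31 in rd2, and Gpr183, the receptor of immune cells for oxysterols derived from 25-hydroxycholesterol, had 21 to 25 against 3 to 8 in C3H. Neither overlapped C3H. Cyp39a1, an oxysterol 7-alpha-hydroxylase that acts on 24S-hydroxycholesterol, had 1.24 to 1.49 FPKM against 3.23 to 3.73 and fell by 1.44 on the log2 scale in rd10 (standard error 0.12). In rd2 it had 1.38 to 1.66 FPKM and fell by 1.22 (standard error 0.12), the only gene of this list called there. In rd1, 0 of 3 tested were called in edgeR, and 1, Cyp46a1, was lower at an unadjusted p below 0.05 and by the adjusted p. Of all genes, 49.7% passed that unadjusted p in either direction, and 21.3% were lower by the adjusted p. Cyp11a1 and Hsd3b7 were not tested in any comparison.

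Markers of glia and microglia differed in rd10 as well, beside the Abca1, Ch25h, Apoe, Apoc1, Lipa, Cyp27a1 and Gpr183 values. For all counts of markers called in rd10 here, the shares of all genes were 15.9% higher and 8.08% lower. Of 9 microglia markers tested in each comparison, 8 were called higher and 0 lower in rd10. All 10 had a summed level of 105 to 123 FPKM against 29.3 to 30.4 in C3H, 31.2 to 32.8 in rd1 and 25 to 26.2 in rd2. Of 4 astrocyte markers, 2 were higher (Gfap and Aldh1l1), with a sum of 90.7 to 100 FPKM against 17.5 to 18.7. Most of this sum was Gfap, at 79.3 to 87 FPKM in rd10 against 8.47 to 8.96 in C3H. The other 2, S100b and Pax2, had log2 fold changes of -0.36 and -0.11 and were not called. Of 8 Müller glia markers, 3 were higher (Clu, Vim and Apoe itself) and 1 lower (Slc1a3). Their sum, Apoe included, was 1220 to 1310 FPKM against 1030 to 1060. Of 8 rod markers, 4 were lower and 0 higher, with a sum of 4250 to 4410 FPKM against 4710 to 4830. None of these markers was at 0 in any group. Of 6 cone markers, 2 were higher and 1 lower, with a sum of 207 to 212 FPKM against 161 to 165. The 5 lens markers summed to 3.42 to 3.51 FPKM against 1.36 to 1.56. The part of cell composition in the results of rd10 was not tested. In rd1, 1 of 9 tested microglia markers was called higher and 0 lower, where 8.98% and 6.03% of all genes were. The part of cell composition in the results of rd1 was not tested either.

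The models were compared with each other by contrasts in 1 edgeR fit of all 12 samples, 19616 genes tested. Ch25h is left out of the counts here too. Between rd10 and rd1, 2 of the other 7 members were called higher and 1 lower in rd10, against 17.6% and 11.2% of all genes. Insig1 was 2.03-fold higher (log2 difference 1.02, standard error 0.05, adjusted p = 1.52e-12). Cyp46a1 was 1.52-fold higher (log2 difference 0.61, standard error 0.11, adjusted p = 5.15e-05), a call lost without rd1 replicate 1, at 0.56, without rd10 replicate 2, at 0.50, and in both limma fits, at 0.45 and 0.54. Ch25h was higher by the bound given above, and Hmgcs1 was lower by 0.62 on the log2 scale (log2 difference -0.62, standard error 0.04, adjusted p = 5.51e-11). Abca1 differed by 0.50 (standard error 0.04, adjusted p = 2.29e-09), under the threshold. For Srebf2 the difference was 0.02 (standard error 0.05, adjusted p = 0.814).

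Between rd2 and rd1, 1 member was called higher and 1 lower in rd2, against 8.21% and 8.66% of all genes. These were Insig1 with a log2 difference of 0.79 (standard error 0.05, adjusted p = 3.30e-10) and Abca1 with -0.67 (standard error 0.04, adjusted p = 1.31e-10). Between rd10 and rd2, 1 was called higher and 1 lower in rd10, against 13.5% and 6.16%. Abca1 was 2.24-fold higher (log2 difference 1.16, standard error 0.04, adjusted p = 7.30e-15), Ch25h was higher by its bound, and Hmgcs1 had a log2 difference of -0.74 (standard error 0.04, adjusted p = 6.02e-12). Idi1 had -0.50 (standard error 0.11) and was called without rd2 replicate 1, at -0.59. These models also differ in labelled day and in the levels of Xist and Ddx3y given above, and these cannot be told apart from the mutation.

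By mean level per length in C3H, the members ranked as Hmgcs1 (48.9 ± 0.574 FPKM, SD, n = 3), Srebf2 (26.1 ± 0.451), Insig1 (17.2 ± 0.878), Sqle (12.5 ± 0.246), Abca1 (8.12 ± 0.111), Idi1 (6.51 ± 0.855), Cyp46a1 (3.95 ± 0.260) and Ch25h at 0. No neighbours in this order overlapped. In rd10, the mean level of Abca1 was 17.4 ± 0.484 FPKM and that of Sqle 9.27 ± 0.444, so that their order was reversed.

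The genes whose log2 CPM followed a member most closely over the 12 samples, out of 17849 tested in all comparisons with C3H, are a description only, since the samples share 4 groups. For Hmgcs1 they were Nadk2 and Ric8b (Pearson's r of 0.996 and 0.996), for Sqle Cltrn and Gm43622 (0.991 and 0.986), and for Idi1 Srd5a1 and Trappc11 (0.959 and 0.924). For Insig1 they were Pcsk1 and Chrna2 (0.996 and 0.995), and for Srebf2 Fbll1 and Caskin1 (0.970 and 0.970). For Abca1 they were Chl1 and Sgpl1 (0.987 and 0.985), for Cyp46a1 Ntn4 and Eml2 (0.974 and 0.974), and for Ch25h Abhd14a and Krt18 (0.996 and 0.994). No other member was among these, and no neighbour came from the pathway lists.

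Circular RNAs (circRNAs), counted as reads across back-splice junctions, were listed for 2 of the 8 members. Of 12510 circRNAs in the file, 5 came from Abca1 and 4 from Srebf2, with at most 3 junction reads each in a sample. Over its 5 circRNAs, Abca1 had 8 reads in C3H, 9 in rd1, 8 in rd10 and 3 in rd2, while its gene level differed as given above. Srebf2 had 3, 0, 6 and 5. Too few reads were counted for a test.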

How the data were processed

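The authors removed ribosomal RNA, prepared directional libraries, aligned reads to GRCm38 and counted them per gene with HTSeq 0.11.2, and they deposited these counts without normalization and FPKM values made from them. They found circRNA junctions with TopHat2 2.1.1 and CIRCexplorer, and deposited junction counts and TPM values of the circRNAs, of which the TPM values were not used. The labels' processing notes also name HISAT2 and DESeq2 1.26.0.

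The members and lists were chosen with earlier results of these data known. Named are the members, every gene of 6 pathway lists called against C3H, and for each member the 2 genes with the highest Pearson's r. The uptake and transport list holds 9 genes here, and 2 others are not reported here. Each model was compared with C3H with the quasi-likelihood test of edgeR 4.0.16 (R 4.3.3, filterByExpr, TMM) on the deposited counts, and the models with each other in 1 fit of 12 samples. Standard errors were computed from the coefficient and its F statistic. On simulated data, edgeR found between 95.8 and 99.0% of added 2-fold changes over the 6 comparisons. These data gave all genes the same spread beyond counting error and held no added change smaller than 2-fold. They therefore say nothing of calls near the 1.5-fold threshold. Alternatives used DESeq2 1.42.0, limma 3.58.1 on log2 FPKM values, and other filters and size factors. Further fits had a term for day or for a class of samples set here by base quality, or left samples out in turn. Positions are from GENCODE vM21 and promoters from RefSeq (GRCm38.p6). Figures were drawn with matplotlib 3.10.9 in Python 3.11.15.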

Additional observations from a re-analysis of the deposited data

Results flagged for a closer look

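The members that differed between models by the test of the difference itself (edgeR's contrast in the fit of all 12 samples) stood out. Between rd10 and rd1 the log2 differences were -0.62 for Hmgcs1, 1.02 for Insig1 and 0.61 for Cyp46a1. Between rd2 and rd1 they were 0.79 for Insig1 and -0.67 for Abca1. Between rd10 and rd2 they were -0.74 for Hmgcs1 and 1.16 for Abca1. Ch25h, a value with no test, was at least 31.6-fold higher in rd10 than in rd1 and at least 37.6-fold higher than in rd2. The models differ in labelled day and sex markers too, which cannot be told apart from the mutation.

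Outside the gene counts, 1 circRNA of Abca1, from 53127596 to 53133015 on chromosome 4, had 3, 2 and 1 junction reads in the rd10 samples, 6 in all, and 0 in the 9 other samples. This was not tested.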

How the results depend on the processing

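Of 719 log2 fold changes of members under alternatives, 701 kept their direction and their call, 6 lost a call, 4 gained one and 8 turned in direction. The 719 and the 701 both include Ch25h in rd10, with 17 values against C3H, 15 against rd1 and 15 against rd2. Its difference was fixed by the filter, so these values say nothing of how firm the results are. The number of members called in rd1 lay between 1 and 2 with single samples left out, and was 2 without rd1 replicate 1, where Abca1 passed the fold threshold. The number of synthesis genes called in rd10 was 2 with limma on log2(FPKM + 1). The turns were of values near 0. With single samples left out, Sqle in rd2 ranged from -0.0082 (without C3H replicate 3) to 0.017, and was -0.00017 and -0.0037 without rd2 replicates 2 and 3. Idi1 in rd2 ranged from -0.012 (without rd2 replicate 3) to 0.20. Srebf2 between rd10 and rd1 was -0.029 and -0.030 with limma at either pseudocount and ranged from -0.042 (without rd10 replicate 2) to 0.048 with samples left out. Cyp46a1 between rd10 and rd2 ranged from -0.023 (without rd10 replicate 2) to 0.17. The cause was not tested. Of 236 values of other genes called from the pathway lists, 226 kept their side and 10 lost a call. The 236 include 16 values each of Apoc1 and Gpr183 in rd10, which passed the filter against C3H in that comparison only.

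The groups share replicate numbers, but same-numbered samples of a model and C3H did not deviate together (Pearson's r across genes between -0.0912 and 0.153), so that the numbers were not taken to pair the samples. With the replicate number as a block, 1 member was called in rd1, 3 in rd10 (Ch25h included) and 0 in rd2, as without it, and no call of a member or of another called pathway gene tested this way changed. With 3 samples a group and 1 C3H sample a day, effects of day, sex and strain cannot be told apart from the mutation, and low counts limit Ch25h outside rd10 and all circRNA values.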
